A study of Homo sapiens with 30 samples.

Results

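Oxidative phosphorylation is the set of mitochondrial reactions that turn electrons from nutrients into ATP. The genes described here are its nuclear-encoded subunit genes, taken by symbol: the NDUFA, NDUFB, NDUFC, NDUFS and NDUFV genes of complex I, SDHA to SDHD of complex II, the UQCR genes and CYC1 of complex III, COX4 to COX8 of complex IV and the ATP5 genes of complex V, without symbols that end in P and a number. This gave 90 members of 18159 genes in either table, and 87 of them were in both tables. By role, 36 belong to complex I, 4 to complex II, 10 to complex III, 17 to complex IV and 18 to complex V. NDUFA4 and NDUFA4L2 were counted with complex IV, where the NDUFA4 protein sits. The other 5 members match by spelling only: ATP5IF1, an inhibitor of the ATP synthase, COX7A2L, a supercomplex factor, ATP5S, and the read-through genes NDUFC2-KCTD14 and ATP5MF-PTCD1. The subunits encoded by mitochondrial DNA were not analysed here.

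The study sequenced poly-A RNA of OPM2 and Delta47, both human myeloma lines kept in RPMI medium with fetal bovine serum. FOXM1, a transcription factor gene of the late cell cycle, had been cut in exon 2 by electroporated Cas9 ribonucleoprotein. Each line had an unedited group (WT) and 2 knockout clones without vector (KO1 and KO2), picked by limiting dilution. Further groups were OPM2 KO1 with empty vector (KO1EV), OPM2 KO1 with FOXM1c (KO1R) and Delta47 KO2 with FOXM1c (KO2R). The labels also list Delta47 KO2 with empty vector, which was not analysed here. FOXM1c came by lentivirus, followed by a sort for GFP, and KO2R is set against KO2 cells that had neither. Its column names lack a clone number, and KO2R is the only Delta47 group name that ends in R. All groups had 3 libraries. A knockout group stands for 1 clone, so what is particular to a clone and what the edit brings cannot be told apart. No label says that replicates are separate cultures, and the p-values therefore measure a spread between libraries that may be technical.

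In the respiratory chain, complexes I and II take electrons from NADH and succinate, complex III passes them to cytochrome c, and complex IV hands them to oxygen. Complexes I, III and IV pump protons, and complex V uses the proton gradient to make ATP. Complex II is also an enzyme of the tricarboxylic acid cycle, and plasma cells rely on mitochondrial respiration to supply antibody secretion.

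Values were FPKM (fragments scaled to transcript length and to the reads mapped) in OPM2 and the authors' expression value, with no unit named, in Delta47. The tables were normalised separately, so levels are given side by side across lines and never tested. Column totals were 510776 to 566016 in OPM2 and 534185 to 633778 in Delta47. These sums are not numbers of reads, so depth is unknown. FOXM1 fell from 175.9 ± 0.804 FPKM (SD, n = 3) in OPM2 WT to 92.06 ± 1.08 in KO1 and 62.13 ± 6.69 in KO2, and was 277.5 ± 14.4 in KO1R. In Delta47 the WT libraries had 88.92 ± 1.88 and those of KO1 47.95 ± 1.85. Delta47 KO2 was at 46.19 ± 0.883 and its FOXM1c group at 99.37 ± 4.37. Of 7 plasma cell markers, XBP1, SDC1 and IRF4 were at 163.9 or more in all 27 libraries, while CD38 was as low as 8.25 in OPM2 and SLAMF7 as low as 13.96 in Delta47. Against WT, 0 of the 7 were called higher and 2 lower in OPM2 KO1 (median -0.29), 1 and 2 in OPM2 KO2 (-0.26), 2 and 5 in Delta47 KO1 (-0.25) and 3 and 4 in Delta47 KO2 (-0.16), where SLAMF7 had the lowest difference (-2.67). Of all genes tested, 14.5% were called higher and 6.72% lower in OPM2 KO1, and 6.54% and 7.82% in OPM2 KO2. In Delta47 these shares were 28.9% and 23.7% in KO1 and 28.4% and 15.2% in KO2. What part the marker differences have in the members' results was not tested. EPCAM was at 0 to 0.04 in OPM2 and at 1.87 to 5.72 in Delta47, and CD3E and CD14 did not exceed 0.22 in either line. KRT18 reached 0.5 in OPM2 and 7.65 in Delta47, KRT8 0.87 and 1.54, and LYZ 1.02 and 0.7. VIM, listed as stromal, was at 1422 to 2149 in OPM2 and 1302 to 1941 in Delta47. Of EPCAM, KRT8 and KRT18, 2 were called higher and 0 lower in Delta47 KO2 against WT (median 0.67), and 1 and 1 in KO1 (-0.07). In bulk RNA, fewer cells of a kind and less RNA per cell cannot be told apart. In each line, 1 limma-trend model was fitted to log2(value + 1) of every gene at 1 or more in at least 3 libraries, and "called" means a Benjamini-Hochberg adjusted p below 0.05 over all genes tested. The scale understates the change of genes with low values.

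Most members were abundant. In OPM2, 81 of 89 listed members passed the filter, and in Delta47, 83 of 88 did. Over the tested members the median of the WT means was 130.6 FPKM in OPM2 and 163.6 in Delta47. The median over all genes tested was 11.75 FPKM and 11.86, taken from each gene's median over all libraries of the line and not from WT means. Complex IV had the highest median in both lines, 360.6 FPKM in OPM2 and 277.8 in Delta47. Complex V followed at 184.2 FPKM in OPM2 and, close to complex IV, at 273.1 in Delta47. Complex I had a median of 110.4 FPKM in OPM2 and 116.5 in Delta47. The highest members were ATP5MC2, a gene of the proton-carrying c ring, at 895.4 FPKM in OPM2, and ATP5MF, a membrane subunit of complex V, at 1035 in Delta47. The members that did not pass the filter in OPM2 were UQCRHL, COX6A2, COX6B2, COX7A1, COX7B2, ATP5MF-PTCD1, NDUFC2-KCTD14 and ATP5MGL, and in Delta47 UQCRHL, COX6B2, COX7A1, COX8C and ATP5MGL.

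The members marked as defining for the set were present in every library. ATP5F1A, the alpha subunit of the catalytic head of complex V, was at 536.0 ± 9.54 FPKM (SD, n = 3) in OPM2 WT and 352.5 ± 8.09 in Delta47 WT. SDHA, the flavoprotein of complex II, was at 308.8 ± 2.95 FPKM and 99.09 ± 0.925. CYC1, the cytochrome c1 of complex III, was at 103.4 ± 7.86 FPKM and 379.5 ± 19.0. The order of these members by level was thus not shared by the lines. SDHA has near-identical pseudogene copies and UQCRH a retrocopy, UQCRHL, so the authors' counting could split their reads.

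Several complex IV subunits exist as a widely expressed and a tissue-restricted isoform, and COX7B2 was a restricted isoform above the filter in Delta47 and not in OPM2. Its promoter and that of its partner COX7B are shown with those of COX8A and SDHD, whose transcripts were called lower in OPM2 KO2 than in WT. Each line gives the 250 bases before the RefSeq transcript start (build GRCh38.p14), 5′ to 3′ on the gene's strand, with a match to an ETS-type motif (CCGGAAG) or an NRF1-type motif (GCGCA, any base, GCGC) on either strand in capitals. COX7B2 lies at chr4:46909246-46909495 on the minus strand, COX7B at chrX:77899218-77899467 on the plus strand, COX8A at chr11:63974370-63974619 on the plus strand and SDHD at chr11:112086623-112086872 on the plus strand.
COX7B2: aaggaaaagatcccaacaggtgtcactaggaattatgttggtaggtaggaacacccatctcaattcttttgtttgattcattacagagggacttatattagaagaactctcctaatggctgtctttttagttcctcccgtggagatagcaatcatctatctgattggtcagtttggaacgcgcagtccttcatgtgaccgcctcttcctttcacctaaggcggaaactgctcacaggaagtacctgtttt
COX7B: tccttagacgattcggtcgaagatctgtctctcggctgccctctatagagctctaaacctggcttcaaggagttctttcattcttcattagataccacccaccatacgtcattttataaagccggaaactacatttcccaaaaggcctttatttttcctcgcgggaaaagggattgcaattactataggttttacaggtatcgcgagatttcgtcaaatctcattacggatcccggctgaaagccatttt
COX8A: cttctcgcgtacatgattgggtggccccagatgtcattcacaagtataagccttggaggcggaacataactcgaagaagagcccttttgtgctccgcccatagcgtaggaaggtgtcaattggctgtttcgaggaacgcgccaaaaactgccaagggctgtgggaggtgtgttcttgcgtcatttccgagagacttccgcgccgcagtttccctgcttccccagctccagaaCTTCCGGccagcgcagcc
SDHD: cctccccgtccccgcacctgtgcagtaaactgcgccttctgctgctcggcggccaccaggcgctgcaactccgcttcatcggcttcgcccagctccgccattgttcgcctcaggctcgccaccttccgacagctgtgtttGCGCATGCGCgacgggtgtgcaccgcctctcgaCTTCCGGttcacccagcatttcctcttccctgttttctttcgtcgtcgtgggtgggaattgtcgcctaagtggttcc

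The COX7B2 window held 5 CG dinucleotides and the COX7B window 13, at the same GC content of 43.2%, while SDHD had 24. The RefSeq table held 86 starts of 72 members (80% of members). The NRF1-type motif was found before 17.4% of these starts, before 9.2% of the starts of other genes tested and before 5.07% of all starts in the table. The ETS-type motif was found before 22.1%, 14.6% and 8.52%. A forkhead motif (TAAACA) stood before 1.16% of member starts, 6.82% of the starts of other genes tested and 10.99% of all starts. A cell cycle homology motif (TTTGAA) stood before 3.49%, 9.1% and 13.3%. The motifs were searched on both strands and may overlap each other, and a match describes letters, not a bound site.

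COX7B2 was near 0 in OPM2 and well above the filter in Delta47. Of the 15 OPM2 libraries, it was at 0.12 FPKM in WT replicate 2 and KO1 replicate 3 and listed at 0 in the other 13. In Delta47 the WT libraries had 29.88, 34.86 and 31.02, and the KO2 libraries had 21.53, 18.27 and 20.13. All KO2 libraries lay below all WT libraries, and the difference was -0.65 ± 0.10 on the log2 scale (SE, limma adjusted p = 5.31e-05). KO1 had 40.17, 34.6 and 30.14, which overlapped with WT (0.12 ± 0.10, adjusted p = 0.315). KO2R had 28.66, 24.84 and 32.6, above KO2 by 0.50 ± 0.10 (adjusted p = 0.000359), but by 0.06 (adjusted p = 0.663) after removal of a trend with transcript length. The partner COX7B had 292.9 ± 7.09 (SD, n = 3) in Delta47 WT and 317.2 ± 9.96 in KO2, a difference of 0.11 ± 0.04 (adjusted p = 0.0206) whose call was lost after centring on library medians (adjusted p = 0.334) and without KO2 replicate 2 or 3 or WT replicate 1 or 2 (0.0600 to 0.0758). The other restricted isoforms COX6A2, COX6B2, COX7A1 and COX8C did not exceed 0.33 in any library where they were listed. NDUFA4L2, the paralog of NDUFA4 known from hypoxia, was at 10.23 ± 1.27 FPKM in OPM2 WT and 4.233 ± 0.615 in Delta47 WT, and no knockout group was called different from WT.

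**Figure D1:**
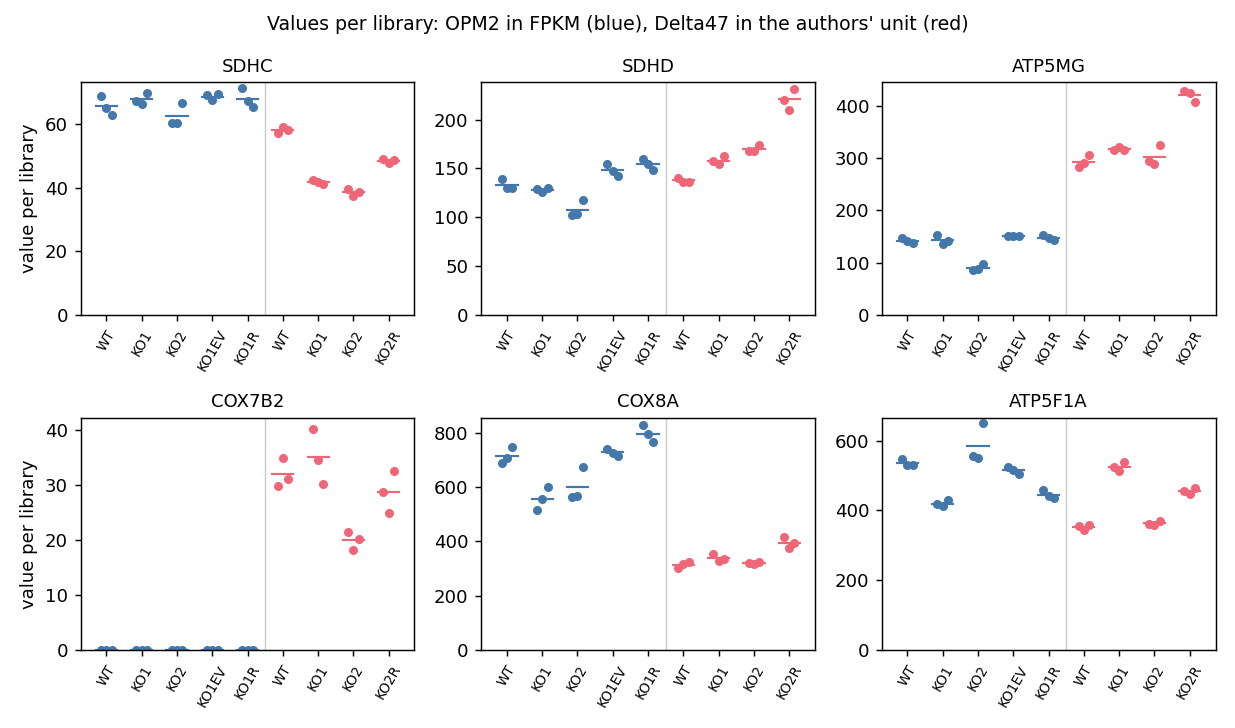
Value of 6 members in each library (points) with the group mean (lines), OPM2 in FPKM in blue and Delta47 in the authors' expression value in red. SDHC is low in the Delta47 knockout groups, ATP5MG is low in OPM2 KO2, and COX7B2 is near 0 in OPM2.

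In OPM2 KO1, few members differed from WT and those called were lower. Of 81 tested members 0 were called higher and 4 lower, where 21.2% of all genes tested were called, 14.5% higher and 6.72% lower. The members' median difference was 0.02 on the log2 scale, against 0.07 over all genes and 0.07 over other genes under 1000 bases. COX8A, a small complex IV subunit, had 687.2, 707.78 and 746.22 FPKM in WT and 514.06, 554.68 and 600.82 FPKM in KO1. The groups did not overlap, and KO1 was lower by a log2 difference of -0.36 ± 0.08 (adjusted p = 0.00558). ATP5F1A had 547.02, 530.66 and 530.33 FPKM in WT and 417.2, 412.31 and 429.65 in KO1, again without overlap (-0.35 ± 0.06, adjusted p = 0.00196). The accessory complex I genes NDUFB4 (-0.26 ± 0.09, adjusted p = 0.0479) and NDUFB5 (-0.24 ± 0.08, adjusted p = 0.0394) were also called. NDUFB4 lost its call without any 1 of the 6 libraries compared (adjusted p 0.0626 to 0.153), as did NDUFB5 (0.0509 to 0.151), whereas COX8A and ATP5F1A kept theirs. SDHA (0.00 ± 0.09, adjusted p = 0.98) and CYC1 (0.17 ± 0.20, adjusted p = 0.54) did not pass the test in KO1.

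The spread pooled over OPM2 groups rested in part on KO2 replicate 3. Its mean log2 value over the tested members was 7.18, against 6.82 and 6.78 in KO2 replicates 1 and 2, and it was the highest KO2 library in 74 of 81 members and in 54.5% of all genes tested. CYC1 had 93.16, 87.31 and 178.54 FPKM in KO2 replicates 1 to 3. KO1EV replicate 3 was the highest of its group in 51.6% of all genes tested, while its mean over the members was 7.05, as in KO1EV replicates 1 and 2. The summed plasma cell markers were 2262 FPKM in KO2 replicate 3 against 3053 and 3016 in its group, and 2266 in KO1EV replicate 3 against 2822 and 2809. The summed stromal markers, nearly all VIM, were 1422 FPKM in KO2 replicate 3 against 2073 and 2086, and 1576 in KO1EV replicate 3 against 1754 and 1738. The part of these shifts in the results was not tested. Without these 2 libraries the fit called 20 members higher and 16 lower in KO1 against WT, where it called 58.9% of all genes. The OPM2 counts are therefore given with and without them.

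**Figure D2:**
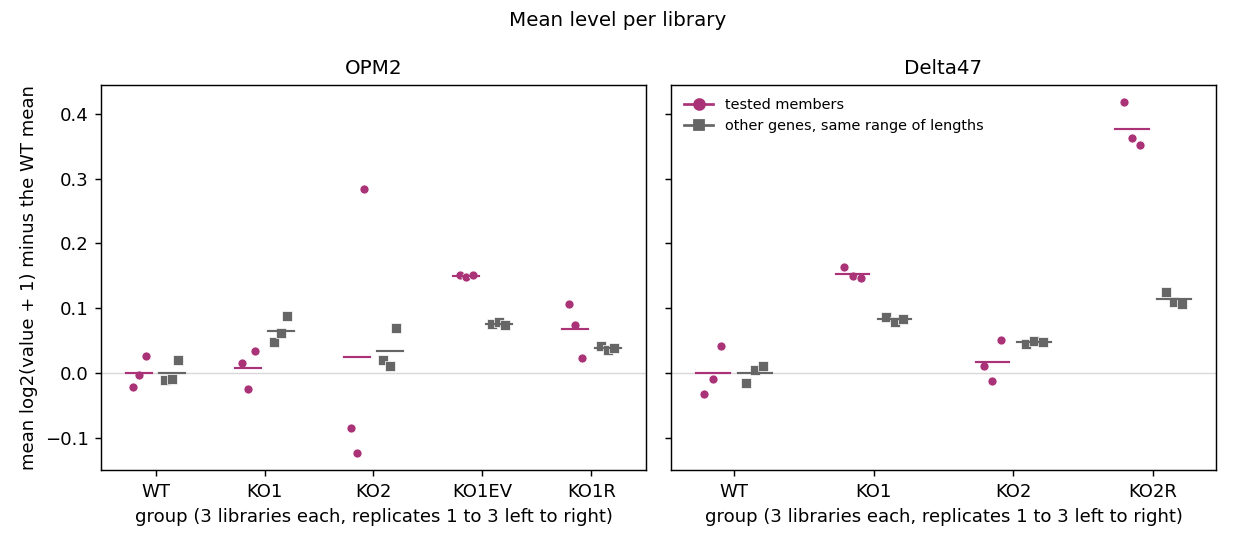
Mean log2(value + 1) over the tested members (circles) and over other genes of a like range of transcript lengths (squares) in each library, as a difference from the mean of the WT libraries of that line; short lines are group means. OPM2 KO2 replicate 3 lies far above the other KO2 libraries, and the Delta47 KO2R libraries lie above all other Delta47 libraries.

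OPM2 KO2 differed from WT in 6 members with all libraries, 2 higher and 4 lower, where 14.4% of all genes tested were called, 6.54% higher and 7.82% lower. The fall of ATP5MG, which encodes subunit g of the membrane part of complex V, stood out by size. It had 146.9, 140.55 and 138.55 FPKM in WT and 86.16, 87.91 and 97.49 FPKM in KO2, so all KO2 libraries lay below all WT libraries (-0.65 ± 0.06, adjusted p = 1.52e-05). SDHD, a membrane anchor of complex II, had 138.84, 130.38 and 129.93 FPKM in WT and 102.69, 102.91 and 117.23 in KO2. Here too the groups did not overlap (-0.31 ± 0.06, adjusted p = 0.00559). COX8A was lower by -0.25 ± 0.08 (adjusted p = 0.0448) and the complex I gene NDUFA5 by -0.31 ± 0.09 (adjusted p = 0.0311). ATP5MPL, a small proteolipid of complex V (0.29 ± 0.08, adjusted p = 0.0236), and COX7A2 of complex IV (0.28 ± 0.09, adjusted p = 0.046) were higher.

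ATP5MG and SDHD kept their calls without any 1 of the 6 libraries. Fitted on the KO2 and WT libraries alone, where 3.78% of all genes were called, ATP5MG was the only member called (adjusted p = 0.0143), while SDHD was at 0.140 and the other 4 members at 0.208 to 0.268. COX8A lost its call without KO2 replicate 1 or 2 or any WT replicate (adjusted p 0.0691 to 0.155), NDUFA5 without KO2 replicate 1 or 2 or WT replicate 1 or 2 (0.0867 to 0.119), ATP5MPL without any WT replicate (0.0569 to 0.0786) and COX7A2 without KO2 replicate 1 or 3 or any WT replicate (0.0511 to 0.137) and under quantile scaling (0.0870). Left out alone, KO2 replicate 3 raised the count to 28 members, 3 higher and 25 lower, and 30.3% of all genes were then called. With KO1EV replicate 3 also left out, 6 members rose and 30 fell, where 41.1% of all genes were called, and the members' median was -0.11 in place of 0.03. SDHA was then lower by -0.23 ± 0.04 (adjusted p = 0.000101), ATP5F1C, the central shaft of complex V, by -0.40 ± 0.05 (adjusted p = 7.03e-06), and ATP5MC3 of the c ring by -0.38 ± 0.04 (adjusted p = 3.32e-06). With all libraries none of these members was called, and SDHA was at -0.09 ± 0.09 (adjusted p = 0.544) with overlapping groups. CYC1 (0.13 ± 0.20, adjusted p = 0.714) and ATP5F1A (0.12 ± 0.06, adjusted p = 0.241) were not called with all libraries either. The sign of the median thus changed with 1 KO2 library of 3.

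KO2 and KO1 of OPM2 differed from each other in 6 members, 3 higher in KO2 and 3 lower, where 29.9% of all genes were called, 10.8% higher and 19.1% lower. ATP5F1A had 555.3, 548.78 and 649.77 FPKM in KO2, all above the 417.2, 412.31 and 429.65 of KO1 (0.47 ± 0.06, adjusted p = 0.000106). NDUFB1 (0.48 ± 0.12, adjusted p = 0.00829) and NDUFB4 (0.26 ± 0.09, adjusted p = 0.0344), both accessory to complex I, were higher in KO2. ATP5MG (-0.66 ± 0.06, adjusted p = 5.63e-06), ATP5F1C (-0.34 ± 0.09, adjusted p = 0.0118) and SDHD (-0.25 ± 0.06, adjusted p = 0.00881) were lower. NDUFB4 lost its call without KO1 replicate 1 or 2 (adjusted p 0.0901 to 0.121) and ATP5F1C without KO2 replicate 1 or 2 (0.0577 to 0.0588). The split of the calls moved with the scaling, to 12 higher and 3 lower after centring each library on its median, where 30% of all genes were called. It was 5 higher and 34 lower without KO2 replicate 3, where 60.8% of all genes were called, and 10 higher and 37 lower without KO1EV replicate 3 as well, where 67.7% were. Fitted on the KO1 and KO2 libraries alone, where 11.6% of all genes were called, ATP5F1A and ATP5MG were still called and the other 4 were not (adjusted p 0.110 to 0.220).

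The empty vector came with a small upward shift of the members in OPM2. Of 81 tested members 4 were called higher in KO1EV than in KO1 and 0 lower, where 4.95% of all genes were called, 1.78% higher and 3.17% lower. The members' median was 0.15, against -0.02 over all genes and 0.08 over other genes under 1000 bases, and it was 0.07 with the length trend removed. Cytosolic ribosomal protein genes had a median of 0.17, with 6 of 81 called higher, and mitochondrial ones 0.13, with 2 of 77. In 45 members all KO1EV libraries lay above all KO1 libraries, as in 12.4% of all genes, and in 1 member they lay below, as in 16.6%. COX8A had 740.95, 725.79 and 715.46 FPKM in KO1EV and 514.06, 554.68 and 600.82 in KO1, with no overlap (0.39 ± 0.08, adjusted p = 0.00893). NDUFB5 had 67.97, 66.12 and 56.37 FPKM in KO1EV and 51.55, 48.77 and 48.65 in KO1 (0.34 ± 0.08, adjusted p = 0.0191). ATP5F1A had 524.89, 514.64 and 504.47 FPKM in KO1EV, above all KO1 libraries (0.29 ± 0.06, adjusted p = 0.016), and NDUFA1, a membrane subunit of complex I, was higher by 0.24 ± 0.06 (adjusted p = 0.0313).

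COX8A kept this call without any 1 library. NDUFB5 lost it without KO1 replicate 2 or 3 or KO1EV replicate 1 or 2 (adjusted p 0.0865 to 0.105), ATP5F1A without KO1 replicate 1 or 2 or KO1EV replicate 1 or 2 (0.0543 to 0.0838) and NDUFA1 without any library but KO1EV replicate 3 (0.0543 to 0.165), with the length trend removed (0.152) and on the compared groups alone (0.0709). The count without KO2 replicate 3 and KO1EV replicate 3 was 37 higher and 1 lower, where 32.1% of all genes were called. NDUFA10, an accessory subunit of complex I, was the lower member (-0.18 ± 0.05, adjusted p = 0.016).

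With FOXM1c few members passed the test in OPM2. KO1R differed from KO1EV in 1 member called higher and 2 lower, where 8.23% of all genes were called, 3.1% higher and 5.12% lower, and the members' median was -0.09 against -0.06 over all genes. In 36 members all KO1R libraries lay below all KO1EV libraries, as in 28.2% of all genes, and in 6 they lay above, as in 14.7%. NDUFB5 had 84.6, 78.89 and 79.85 FPKM in KO1R, above all KO1EV libraries (0.35 ± 0.08, adjusted p = 0.0126), so it was low in KO1 (49.66 ± 1.64 FPKM, SD, n = 3), higher in KO1EV (63.49 ± 6.23) and highest in KO1R (81.11 ± 3.06), with WT at 59.04 ± 4.31. KO1EV served as the control of KO1R and was itself compared with KO1, so these comparisons share libraries. NDUFC1 had 61.34, 60.64 and 59.96 FPKM in KO1EV and 47.54, 41.91 and 40.34 in KO1R, below all KO1EV libraries (-0.48 ± 0.12, adjusted p = 0.0306). NDUFB6 was lower by -0.36 ± 0.09 (adjusted p = 0.0307).

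NDUFB5 lost its call without KO1R replicate 1 (adjusted p = 0.0671). NDUFC1 (0.0767 to 0.113) and NDUFB6 (0.0758 to 0.115) lost theirs without any 1 of the 6 libraries except KO1R replicate 1, and both also after centring each library on its median, where 2 members were higher and 0 lower and 7.28% of all genes were called. In the fit without KO2 replicate 3 and KO1EV replicate 3, 3 members rose and 16 fell, where 26.4% of all genes were called.

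**Figure D3:**
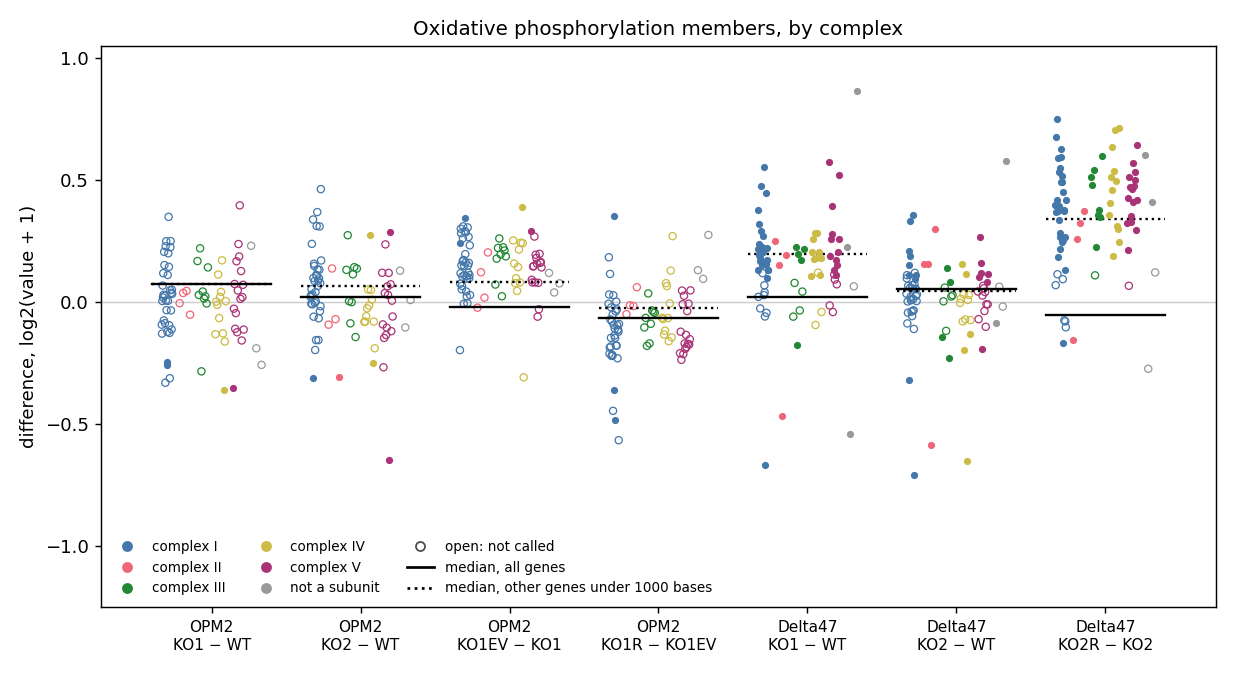
Difference of each tested member on the log2(value + 1) scale in 7 comparisons, coloured by complex, filled where called and open where not; solid lines mark the median of all genes tested and dotted lines that of other genes under 1000 bases. In Delta47 KO2R most members lie above the line of all genes and around the line of short genes.

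In Delta47 KO1 most members were higher than in WT, by small amounts. Of 83 tested members 58 were called higher and 4 lower, where 52.6% of all genes tested were called, 28.9% higher and 23.7% lower. The median was 0.17 over members, 0.02 over all genes and 0.20 over other genes under 1000 bases, of which 373 of 648 were called higher. All complexes took part: 27 of 36 complex I members were called higher, 3 of 4 in complex II, 4 of 9 in complex III, 10 of 13 in complex IV and 12 of 17 in complex V. ATP5F1A had 356.6, 343.16 and 357.69 in WT and 523.65, 512.63 and 539.16 in KO1. The groups lay far apart (0.57 ± 0.03, adjusted p = 4.07e-10), and the difference kept its size with the length trend removed (0.56). NDUFB8, an accessory subunit of complex I, had 167.72, 173.51 and 182.25 in WT and 256.78, 254.66 and 259.14 in KO1, without overlap (0.56 ± 0.04, adjusted p = 2.52e-09). ATP5PO, the stalk subunit that ties the head of complex V to its membrane part, was at 163.6 ± 1.37 (SD, n = 3) in WT and 235.6 ± 9.98 in KO1 (0.52 ± 0.04, adjusted p = 8.91e-09). NDUFC2-KCTD14 was higher by 0.87 ± 0.11 (adjusted p = 6.61e-06), from a WT mean of 6.04 ± 0.499, but it overlaps NDUFC2 and could share its reads. With a smooth trend of each library with transcript length removed, 19 members were called higher and 19 lower, where 47.5% of all genes were called, and the median was 0.00.

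Members called lower in Delta47 KO1 included SDHC, UQCRB and ATP5MF-PTCD1, a read-through at 1.95 in WT whose call was lost without KO1 replicate 1 or 3 or WT replicate 1 (adjusted p 0.0904 to 0.240). SDHC, a membrane anchor of complex II, had 57.28, 59.06 and 58.18 in WT, 42.45, 41.93 and 41.05 in KO1, and 39.46, 37.33 and 38.68 in KO2. It differed from WT by -0.47 ± 0.03 (adjusted p = 1.53e-08) and -0.58 ± 0.03 (adjusted p = 8.93e-10), and no knockout library reached the WT range. The clones were set against the same WT libraries. Other complex II genes were called higher: SDHA by 0.25 ± 0.03 (adjusted p = 5.4e-06) in KO1 and 0.16 ± 0.03 (adjusted p = 0.000628) in KO2, and SDHD by 0.19 ± 0.04 (adjusted p = 0.000367) and 0.30 ± 0.04 (adjusted p = 6.29e-06). SDHD in KO1 lost its call under quantile scaling (adjusted p = 0.122) and with the length trend removed (0.876). In OPM2 SDHC was not called in either knockout clone.

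SDHC lies on chromosome 1, and the genes around it were low too in the Delta47 clones. In an order chosen after the values were seen, the 20 nearest tested genes on each side that are not members were taken for every member. Of the 40 neighbours of SDHC, 39 were called lower in Delta47 KO1 (median -0.57) and 38 in KO2 (median -0.76). ATP5F1A on chromosome 18 also moved with its surroundings in Delta47 KO1, where 32 of its 40 neighbours were called higher and 1 lower (median 0.34), while in KO2 ATP5F1A was at 0.04 ± 0.03 (adjusted p = 0.274) and its neighbours at a median of 0.03. In OPM2 KO1, where ATP5F1A fell, 15 of its 40 neighbours were called lower and 2 higher (median -0.17). In OPM2 KO2, 27 of the 40 neighbours of ATP5MG and 19 of the 40 of SDHD, both on chromosome 11 with 19 neighbours in common, were called lower and 0 higher, with medians of -0.51 and -0.32, and the same held for 18 of the 40 of NDUFA5 on chromosome 7 (median -0.32). COX8A (median -0.01 in OPM2 KO2) and COX7B2 (0.07 in Delta47 KO2) fell without such a shift around them. Of all genes tested, 23.7% were called lower and 28.9% higher in Delta47 KO1 against WT, and 15.2% and 28.4% in Delta47 KO2. In OPM2 these shares were 6.72% and 14.5% in KO1 and 7.82% and 6.54% in KO2. Over all tested members, Pearson's r between a member's difference and the median of its neighbours was 0.425 in OPM2 KO1 against WT and 0.668 in KO2 (n = 81), and 0.61 and 0.57 in Delta47 KO1 and KO2 (n = 83). It was 0.609 and 0.274 between the clones of OPM2 and of Delta47, 0.454 in KO1EV against KO1, 0.525 in KO1R against KO1EV and 0.129 in KO2R against KO2. Spearman's rho was below Pearson's r in all 9 comparisons, at 0.09 to 0.483, and was 0.227 in Delta47 KO2 against WT. These are descriptions across genes, whose neighbourhoods overlap and whose values come from the same libraries. What the neighbours share with a member was not tested.

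**Figure D4:**
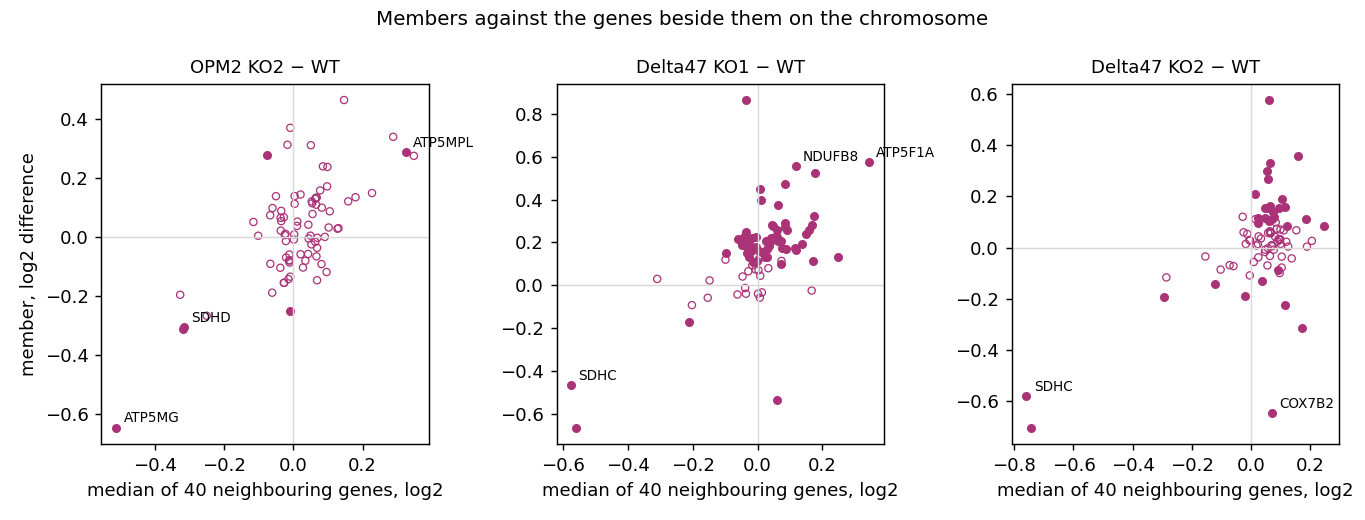
Log2 difference of each tested member (vertical) against the median of up to 40 neighbouring genes (horizontal) in 3 comparisons, filled where the member was called and open where not. SDHC lies at the lower left in both Delta47 clones, ATP5MG does in OPM2 KO2, and COX7B2 is low with neighbours near 0.

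In Delta47 KO2 members moved in both directions against WT. Of 83 tested members 22 were called higher and 10 lower, where 43.6% of all genes were called, 28.4% higher and 15.2% lower, and the median was 0.03 over members and 0.05 over all genes. The split changed to 9 higher and 15 lower after centring on library medians, where 39.3% of all genes were called, and to 13 higher and 18 lower with the length trend removed, where 42% were. NDUFB8 had 220.85, 220.67 and 230.02 in KO2, between WT and KO1, and was higher than WT by 0.36 ± 0.04 (adjusted p = 4.52e-07). NDUFA9, an accessory complex I subunit, was at 30.68 ± 0.48 (SD, n = 3) in WT and 38.9 ± 1.25 in KO2 (0.33 ± 0.05, adjusted p = 1.9e-05), and ATP5F1D of the complex V shaft at 396.9 ± 30.8 and 477.5 ± 4.24 (0.27 ± 0.05, adjusted p = 0.000777). Beside SDHC and COX7B2, NDUFA7 of complex I fell by 0.32 on the log2 scale (adjusted p = 0.00025). CYC1 had 358.11, 394.34 and 385.98 in WT and 337.39, 339.37 and 353.09 in KO2, below all WT libraries (-0.14 ± 0.04, adjusted p = 0.011), a call lost without WT replicate 2 (adjusted p = 0.0623) and under quantile scaling (0.0913).

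Compared with KO1, KO2 of Delta47 had 2 members called higher and 48 lower, where 42.1% of all genes were called, 24.9% higher and 17.2% lower. The median was -0.13 over members and -0.17 over other genes under 1000 bases. ATP5F1A had 361.31, 359.44 and 369.32 in KO2, below all KO1 libraries (-0.53 ± 0.03, adjusted p = 2.79e-09), and ATP5PO differed by -0.41 ± 0.04 (adjusted p = 5.02e-07). The count was 30 without KO1 replicate 1, where 34.2% of all genes were called, and 32 without KO2 replicate 2, where 34.6% were. It became 4 higher and 25 lower under quantile scaling (40.1% of all genes called) and 11 higher and 22 lower with the length trend removed (34.8%).

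Of the 9 comparisons, the members' median was farthest from 0 in Delta47 KO2R against KO2. Of 83 tested members 71 were called higher in KO2R than in untransduced KO2 and 2 lower, where 62% of all genes were called, 25.2% higher and 36.8% lower. The median was 0.38 over members and -0.05 over all genes. All 13 tested complex IV members, 16 of 17 in complex V, 8 of 9 in complex III, 29 of 36 in complex I and 3 of 4 in complex II were called higher. NDUFA2, an accessory complex I subunit, had 72.57, 70.35 and 75.9 in KO2 and 124.08, 126.57 and 119.63 in KO2R. The groups did not overlap, and the difference was 0.75 ± 0.04 (adjusted p = 1.11e-09). COX7B had 305.69, 322.52 and 323.32 in KO2 and 536.84, 503.52 and 513.69 in KO2R (0.71 ± 0.04, adjusted p = 5.28e-10). NDUFA4 (0.71 ± 0.04, adjusted p = 2.72e-09), NDUFA11 of complex I (0.68 ± 0.05, adjusted p = 6.32e-09) and CYC1 (0.51 ± 0.04, adjusted p = 3.72e-08) were higher as well.

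SDHA was called lower in KO2R, with 97.18, 99.76 and 101.31 against 109.34, 109.98 and 112.76 in KO2 (-0.15 ± 0.03, adjusted p = 0.000442). The groups did not overlap, but the call was lost after centring on library medians (adjusted p = 0.140), where 76 members were higher and 0 lower and 61.9% of all genes were called. SDHC went the other way, with 48.87, 47.67 and 48.75 in KO2R (0.32 ± 0.03, adjusted p = 6.87e-07), still below its WT libraries. NDUFA7 rose by 0.59 ± 0.06 (adjusted p = 1.81e-07) to 229.0 ± 13.4 (SD, n = 3), where WT had 189.0 ± 13.2 and KO2 151.4 ± 4.61. ATP5MC2 of the c ring differed by -0.19 ± 0.05 (adjusted p = 0.00372) in KO2 against WT and by 0.33 ± 0.05 (adjusted p = 1.47e-05) in KO2R against KO2. COX6C of complex IV differed by -0.19 ± 0.05 (adjusted p = 0.00461) and 0.19 ± 0.05 (adjusted p = 0.00312), the latter -0.04 (adjusted p = 0.544) with the length trend removed. The comparisons of KO2 with WT and of KO2R with KO2 share the KO2 libraries.

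Transcript length went along with the shift in KO2R. The median transcript length was 954 bases over members and 2748 bases over all OPM2 genes. Of other genes under 1000 bases, 465 of 648 were called higher in KO2R and 20 lower, with a median of 0.34. Among transcripts under 600 bases the median was 0.48 over 16 members and 0.47 over 103 other genes. From 600 to under 1000 bases it was 0.42 over 30 members and 0.34 over 545 other genes, and 0.38 over the 317 of those with a mean value of at least 30. The gap was wider for longer transcripts, with 0.26 over 20 members and 0.12 over 2656 other genes at 1000 to under 2000 bases, and 0.33 over 17 members and -0.14 over 7514 other genes at 2000 bases or more. With the length trend removed, 44 members were called higher and 11 lower, where 56.6% of all genes were called, and the median was 0.13. NDUFA9 (0.71), NDUFA4 (0.71), ATP5F1E of the complex V shaft (0.66) and ATP5F1A (0.42) remained higher, while COX8A was then -0.16. Before the removal NDUFA9 was at 0.395, NDUFA4 at 0.71, ATP5F1E at 0.51, ATP5F1A at 0.33 and COX8A at 0.30. The removal and the length bins rest on annotated mean lengths, 8363 bases for NDUFA9 and 3665 for ATP5F1E. Whether the cells used transcripts of these lengths was not tested. The shift of the shortest members was thus close to that of other short transcripts, and the cause of the trend was not tested.

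**Figure D5:**
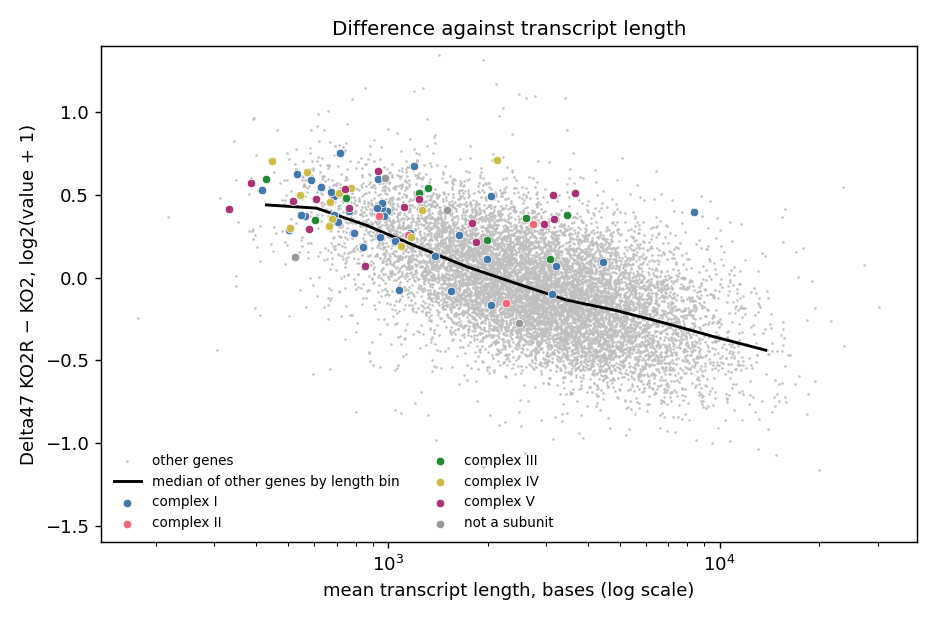
Difference between Delta47 KO2R and KO2 on the log2(value + 1) scale against mean transcript length in bases (log axis), with members coloured by complex, other genes in grey and the median of other genes in narrow bins of length as a line; 7 genes fall outside the plotted range. Short transcripts lie mostly above 0, members or not, and the members of 2000 bases or more have a median of 0.33 where other genes have -0.14.

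Other gene sets of mitochondria and of short transcripts were counted in the same fits, as sets chosen with earlier results known. Over all genes tested, 25.2% were called higher and 36.8% lower in Delta47 KO2R against KO2. The shares against WT were 28.9% and 23.7% in Delta47 KO1, 28.4% and 15.2% in Delta47 KO2, and 14.5% and 6.72% in OPM2 KO1. In Delta47 KO2R against KO2, 78 of 81 cytosolic ribosomal protein genes were called higher and 1 lower (median 0.57). The counts were 64 higher and 2 lower of 77 mitochondrial ribosomal protein genes (0.30), 30 and 2 of 44 assembly factors of the respiratory chain (0.27) and 22 and 9 of 38 proteasome subunits (0.14). The enzymes of the tricarboxylic acid cycle had 6 of 16 called higher and 4 lower (0.01). In Delta47 KO1 against WT, 24 of 44 assembly factors were higher and 2 lower (0.18), and 4 of 16 cycle enzymes were higher and 1 lower (0.00). In Delta47 KO2 against WT, 50 of 81 cytosolic ribosomal protein genes were called lower and 2 higher (-0.14), while the members' median was 0.03. In OPM2 KO1, 19 of 81 cytosolic ribosomal protein genes were lower and 0 higher (-0.15), and 2 of 44 assembly factors were higher and 1 lower (0.08). Regulators such as TFAM, GABPA, NRF1 and ESRRA, with the carrier CYCS, had 3 of 9 tested genes higher and 4 lower in KO2R (-0.09). No gene set was tested as a set.

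The genes whose library pattern was most like the members' mean were, in Delta47, PPIA (Pearson's r 0.997 over 12 libraries), RPL35 (0.997), BRK1 (0.993), ROMO1 (0.992) and NME1 (0.991), and in OPM2 MRPS16 (0.946 over 15 libraries), PMF1-BGLAP (0.930), PPP1R14B (0.929), CIAPIN1 (0.928) and CTU2 (0.928). These r describe the libraries, which share groups and a normalisation, and carry no test.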

How the data were processed

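RNA-seq values of 27 libraries in 9 groups of 3 were used. For OPM2 the authors deposited FPKM, per the file headers. For Delta47 the deposited table names no unit, and its values were taken as a signal. The genome build named in the submitters' processing notes is hg19; aligner and counter were not given in the sources used here. Depth is unknown: in 195 sparse genes of OPM2 and 148 of Delta47, nearly equal low values gave relative read steps of -0.03 to 0.05 and -0.03 to 0.04 (log2) per library. Only genes with nonzero values of at least 0.05, the highest under 1.6 times the lowest, were used. That bound keeps the steps small in advance, so they cannot show whether the libraries had like depth. Columns for 3 Delta47 libraries matched no single sample name and were not analysed here, nor was the Delta47 empty-vector group.

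Members were found by symbol and grouped by complex by hand. Transcript lengths are means over the GENCODE v29 transcripts with a RefSeq accession, or over all transcripts of a gene with none, and all members had one. Symbols that had turned into dates, 23 and 24 of them, were restored by gene ID. A gene was tested if 3 or more libraries of its line had at least 1, which left 10309 in OPM2 and 11001 in Delta47, with limma-trend (limma 3.58.1, R 4.3.3) on log2(value + 1), 1 fit per line, two-sided, with Benjamini-Hochberg adjustment over all genes tested. The fit was tested on simulated data. Tables and figures were made with Python 3.11.15, pandas 2.3.3 and matplotlib 3.10.9.

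Named in each comparison were SDHA, CYC1 and ATP5F1A, up to 4 called members with the largest rise and the largest fall, members called in both clones or called the other way with the FOXM1 vector, and isoform pairs of complex IV, except for a member that is not reported here; further members in the fit without 2 libraries and with the length trend removed were named after their values were seen. Alternatives were a pseudocount of 0.1, no filter or a filter at 5, quantile scaling, median centring, only the groups compared, a replicate block, removal of a length trend, and leaving out libraries. The members, lists and alternatives were chosen with earlier results of these data known.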

Additional observations from a re-analysis of the deposited data

Results flagged for a closer look

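Some members were called in opposite directions in the 2 lines, with no overlap between groups in either line. The tables were normalised separately, so the difference between lines was not tested. Against WT, KO1 differed by a log2 value of -0.35 in OPM2 and 0.57 in Delta47 for ATP5F1A, by -0.36 and 0.11 for COX8A, and by -0.24 and 0.21 for NDUFB5. KO2 differed by -0.31 in OPM2 and 0.21 in Delta47 for NDUFA5, and by -0.31 and 0.30 for SDHD. In the FOXM1c vector groups, KO1R differed from KO1EV by -0.36 and KO2R from KO2 by 0.60 for NDUFB6, and by -0.48 and 0.25 for NDUFC1; these contrasts differ in their control, an empty vector in OPM2 and untransduced cells in Delta47. The Delta47 call of COX8A was lost after median centring (adjusted p = 0.0831) and quantile scaling (0.314), and that of NDUFC1 with the length trend removed (0.626). In OPM2 the calls of NDUFB5, NDUFA5, NDUFB6 and NDUFC1 were lost without single libraries. Clone numbers do not match a clone of OPM2 with one of Delta47.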

How the results depend on the processing

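Counts of members called against all libraries and settings moved most in OPM2. Fitted on the compared groups alone, they were 29 (KO1 against WT), 1 (KO2 against WT), 2 (KO2 against KO1), 10 (KO1EV against KO1) and 11 (KO1R against KO1EV), where 54.4%, 3.78%, 11.6%, 6.05% and 13.7% of all genes were called. Without the 2 libraries that stand apart they were 36, 36, 47, 38 and 19, where 58.9%, 41.1%, 67.7%, 32.1% and 26.4% of all genes were called. With the length trend removed they were 13, 10 and 15 for the first 3 of these comparisons and 5 for KO1R (21.2%, 15.5%, 30.2% and 7.7% of all genes), and in Delta47 38 for KO1 against WT and 33 for KO2 against KO1 (47.5% and 34.8%). The members' medians were then -0.04, -0.03, 0.02, 0.07 and -0.04 in OPM2. Median centring gave 9 for OPM2 KO1 and 15 for KO2 against KO1 (20.5% and 30%). Quantile scaling gave 13 for OPM2 KO2 against KO1, 5 for KO1R and 29 for Delta47 KO2 against KO1 (31%, 7.48% and 40.1%). The cause of these moves was not tested, except that a fit of fewer libraries estimates the spread from those alone. Leaving out 1 library gave 2 to 3, 2 to 28, 6 to 39, 1 to 4 and 1 to 2 in OPM2, and 48 to 64, 23 to 30, 30 to 49 and 72 to 74 in Delta47 (KO1, KO2, KO2 against KO1, KO2R). The shares of all genes called were then 11.4% to 14.4%, 9.06% to 30.3%, 20.8% to 60.8%, 2.17% to 5.79% and 4.04% to 5.51% in OPM2. In Delta47 they were 45.8% to 49.5%, 37.3% to 39.1%, 34.2% to 36.8% and 56.4% to 59.9%. COX6C in Delta47 KO2R against KO2 reversed to -0.0379 with the length trend removed. Replicate numbers were not taken to pair libraries: the correlation of deviations from the group means was -0.197 to 0.751 over same-numbered and -0.742 to 0.623 over differently numbered libraries in OPM2, and -0.223 to 0.201 and -0.283 to 0.294 in Delta47. The value of 0.751 belongs to the third libraries of KO2 and KO1EV, those that lie away from the rest of their groups. With a replicate block the counts were 5, 6, 9, 4 and 4 in OPM2 and 63, 31, 49 and 73 in Delta47. Of all genes, 25.5%, 15.4%, 33%, 5.36% and 9.46% were then called in OPM2 and 51.9%, 42.7%, 41% and 61.5% in Delta47. Over all members and comparisons 9 calls were gained under the block (adjusted p 0.0336 to 0.0476) and 6 lost (0.05 to 0.0593), among them NDUFB6 in Delta47 KO1 (lost) and UQCRB in OPM2 KO1, Delta47 KO2 and KO2R and COX7A2 in OPM2 KO2 against KO1 (gained). A pseudocount of 0.1, a filter at 5 and no filter moved no count by more than 1.5 times. With no filter the Delta47 counts went from 62, 32, 50 and 73 to 52, 28, 36 and 71. The share of all genes called went from 52.6%, 43.6%, 42.1% and 62% to 34.6%, 29.1%, 25.9% and 38.6%. The calls that no filter ended included NDUFB4 in OPM2 KO1 (adjusted p = 0.0548) and COX8A and COX7A2 in OPM2 KO2 (0.0686 and 0.0541). In Delta47 KO1 they included COX8A (0.0598), ATP5MF-PTCD1 (0.153), NDUFA3 (0.0852) and NDUFS8 (0.108), among further members. Where the depth is unknown, no limit for values listed at 0 can be given.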
